A study of Mus musculus with 2 samples.

Results

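The genes of cytochrome P450 families 1 to 4 were examined for Hnf4a sites in iHepCs, hepatocyte-like cells made from mouse embryonic fibroblasts. Members were all protein-coding genes of the RefSeq annotation of GRCm38.p6, the assembly of mm10, whose symbol is Cyp, a family number of 1 to 4, a letter for the subfamily and a number. This gave 74 of 21883 protein-coding genes, in 21 subfamilies. Genes with a further letter after the number, such as Cyp3a41a and Cyp3a41b, do not match and are not members. Of these, 63 lie in 16 clusters of neighbours no more than 100 kb apart and 11 lie alone, which makes 27 loci. Sites were mapped by ChIL-seq, an assay on fixed cells in which an antibody-borne probe guides Tn5 so that DNA near the protein is tagged and copied into RNA in place. The only group holds 2 samples, described as biological replicates, of wild-type C57BL/6J embryonic fibroblasts carrying retroviral Foxa2 and Hnf4a. Their medium held 100 nM dexamethasone, 20 ng/ml of the growth factor HGF and 20 ng/ml of EGF, and the labels still give the cell type as fibroblast. The Hnf4a that was mapped can therefore be the introduced factor, and the peak names put both replicates in the same lot of cells.

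P450 enzymes of families 1 to 3 oxidise drugs, pollutants, steroids and bile acids, and those of family 4 hydroxylate fatty acids. They are haem proteins of the endoplasmic reticulum and most are best known from the liver, where Hnf4a, a nuclear receptor, binds repeated nuclear receptor words such as those that hold CAAAGTCCA. Other regulators are best known for some of these genes: the aryl hydrocarbon receptor for Cyp1 and the constitutive androstane receptor for Cyp2b. The pregnane X receptor is best known for Cyp3a and PPAR alpha for Cyp4a.

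The deposited lists held 21283 peak summits in replicate 1 and 24097 in replicate 2, each a single base with the authors' −log10 q-value, called the score here. The median score was 7.32 in replicate 1 and 6.67 in replicate 2. A site is called shared where each replicate has a summit within 100 bp of the other, which 9193 pairs were. Read depth is unknown, no control library was analysed, and there is no comparison between conditions, so what follows are positions, scores and counts without a test. Shared summits lay within 10 kb of a gene end at 4 of 8 hepatocyte marker genes (Afp, Serpina1a, Trf and Fgb), at 0 of 8 fibroblast markers and at 0 of 5 endothelial and blood markers, although Prrx1, a fibroblast marker, and Cdh5, an endothelial one, had one deeper inside the gene. Of all protein-coding genes, 20.6% had a shared summit within 10 kb, so counts of 0 among 8 and 5 genes say little. Taken alone, replicate 1 had a summit there at 6, 1 and 2 of these genes (39.4% of all genes) and replicate 2 at 6, 4 and 1 (41.9% of all genes), and a summit beside a gene does not show its expression.

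Shared sites lay at the very start of 3 members whose start is known from a RefSeq promoter window, the 250 bases before and 50 after a gene start. These were Cyp2c70, which makes the muricholic acids of mouse bile, Cyp3a16, a form of fetal mouse liver, and Cyp2d26 of the Cyp2d subfamily. Each of the 3 windows held a word of the form CAAAGNNCA, a relaxed HNF4 motif. The 250 bases before each start are shown 5′ to 3′ on the gene's strand, from RefSeq on GRCm38.p6, with the motif in capitals, because these are the promoters with a shared site. The replicate 1 summit of Cyp2d26 lies just upstream of the stretch shown.
Cyp2c70, chr19:40187287-40187536, minus strand: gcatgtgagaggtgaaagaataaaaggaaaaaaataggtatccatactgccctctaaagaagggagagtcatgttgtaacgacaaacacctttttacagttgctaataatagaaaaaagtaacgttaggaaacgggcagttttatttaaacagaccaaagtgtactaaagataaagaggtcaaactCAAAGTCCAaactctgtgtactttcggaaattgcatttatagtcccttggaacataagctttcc
Cyp2d26, chr15:82794246-82794495, minus strand: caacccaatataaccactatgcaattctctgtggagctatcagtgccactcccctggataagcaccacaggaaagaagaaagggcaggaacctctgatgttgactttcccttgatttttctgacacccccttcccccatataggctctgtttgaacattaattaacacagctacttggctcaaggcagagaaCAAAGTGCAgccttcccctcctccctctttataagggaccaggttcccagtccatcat
Cyp3a16, chr5:145469724-145469973, minus strand: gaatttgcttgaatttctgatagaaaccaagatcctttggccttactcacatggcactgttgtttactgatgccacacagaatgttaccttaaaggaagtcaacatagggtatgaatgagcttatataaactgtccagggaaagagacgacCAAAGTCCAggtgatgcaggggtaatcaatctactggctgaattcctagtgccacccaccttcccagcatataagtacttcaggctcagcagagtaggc

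The Cyp2c70 site was the best-scored of the 3, with scores of 27.2 in replicate 1 and 28.8 in replicate 2, within the top 2.26% and 1.54% of the lists. Its summits lay 187 and 128 bp before the gene start, and 127 and 68 bp from the centre of the motif. At Cyp2d26 the scores were 11.8 in replicate 1 and 6.81 in replicate 2, with summits 273 and 183 bp before the start, and 219 and 129 bp from the motif centre. The gene span of Cyp2d26 reaches 82794452, upstream of the start used here, at 82794245. Inside that span lie the replicate 2 summit and the motif. A further shared site lay 667 bp into Cyp2d26 from the start used here, with scores of 4.39 and 7.69. Cyp3a16 had the lowest scores, 6.98 in replicate 1 and 4.31 in replicate 2, with summits 231 and 203 bp before the start and 136 and 108 bp from the motif centre. The Cyp2c70 scores were far above the list medians, those of Cyp2d26 were above them and those of Cyp3a16 below. At all 3 genes both summits lay upstream of the motif rather than on it.

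Windows were given for 62 members, and the 3 with a shared summit in the window were 4.84% of them, beside 5.81% of all 17491 protein-coding genes with a window. Taken alone, replicate 1 had a summit in the window of 2 of the 62 members (11.1% of all genes) and replicate 2 in that of 4 (10.2% of all genes). The shared share was near that of all genes and the single-replicate shares were below theirs, on counts of 2 to 4 genes. The position of a shared site is taken as the midpoint of its 2 summits. The 62 members had 69 windows, and a gene counts once if any of its windows held the summit or motif.

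HNF4 words were more frequent in P450 promoters than in all promoters. The 9-base core CAAAGTCCA, searched on both strands, was present in windows of 8 of 62 members (12.9%). Beside that stand 0.520% of all 17491 genes and 1 of 10 P450 genes of families 5 and above with a window. All 8 copies lay on the gene strand, from 45 to 125 bases before the start. They belong to 6 Cyp2c genes and 2 Cyp3a genes. The core with 10 bases on either side is shown for the 8, in capitals and on the gene's strand, because a shared summit was present in the windows of Cyp2c70 and Cyp3a16 only.
Cyp2c70, chr19:40187332-40187360, minus strand: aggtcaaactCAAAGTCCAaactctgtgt
Cyp3a16, chr5:145469804-145469832, minus strand: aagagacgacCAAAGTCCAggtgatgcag
Cyp3a11, chr5:145879945-145879973, minus strand: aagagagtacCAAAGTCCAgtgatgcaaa
Cyp2c65, chr19:39060880-39060908, plus strand: gatgttggaaCAAAGTCCActgggaggag
Cyp2c67, chr19:39649149-39649177, minus strand: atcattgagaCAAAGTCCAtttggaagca
Cyp2c68, chr19:39741160-39741188, minus strand: atcattgaaaCAAAGTCCAattggaagag
Cyp2c69, chr19:39886826-39886854, minus strand: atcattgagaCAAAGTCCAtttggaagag
Cyp2c40, chr19:39812841-39812869, minus strand: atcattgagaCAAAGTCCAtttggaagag

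These 8 stretches were singled out after the search. Cyp2c40 and Cyp2c69 have the same 29 bases, and related genes are not separate occurrences of a word. Cyp3a11, the main Cyp3a enzyme of adult mouse liver and the classic pregnane X receptor target, holds the core 109 bases before its start, and Cyp3a16 holds it 99 bases before. Their windows are 78.3% identical, yet Cyp3a11 had a single summit nearby, in replicate 1, 1665 bp before the start with a score of 5.16. Its nearest shared summit was 344322 bp away. Cyp3a44, whose window is 94.7% identical to that of Cyp3a16, holds the word CAAAGTACA. Its best-scored summit within 50 kb was seen in replicate 2 alone, 36260 bp away with a score of 8.67. The nearest gene to that summit was Cyp3a41a, at 17587 bp.

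The relaxed motif CAAAGNNCA, which takes in the core, was present in windows of 22 of 62 members (35.5%), beside 6.65% of all genes. The 22 were all 5 Cyp2d genes with a window, 6 of 7 Cyp3a, 8 of 13 Cyp2c, 2 of 4 Cyp2a and Cyp4b1, and no window of Cyp1a, Cyp1b, Cyp2b, Cyp2j, Cyp4a or Cyp4f held it. In 21 of the 22 it lay on the gene strand, beside 49.4% of all 1163 genes with the motif, and it stood 45 to 180 bases before the start with a median of 77. The core aside, CAAAGGGCA was found in Cyp2d9, Cyp2d10, Cyp2d11 and Cyp2d40, CAAAGGTCA in Cyp3a25, Cyp3a57 and Cyp3a59, CAAAGTGCA in Cyp2c37, Cyp2c50 and Cyp2d26, and CAAAGGCCA in Cyp2a12 and Cyp2a22. Of the 22 genes, 3 had a shared summit in the window (13.6%), beside 5.16% of all 1163 genes with the motif. Of the 8 with the core, 2 had one (25%), beside 5.49% of all 91 genes with the core. These shares rest on 3 and 2 genes and were not tested.

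**Figure D1:**
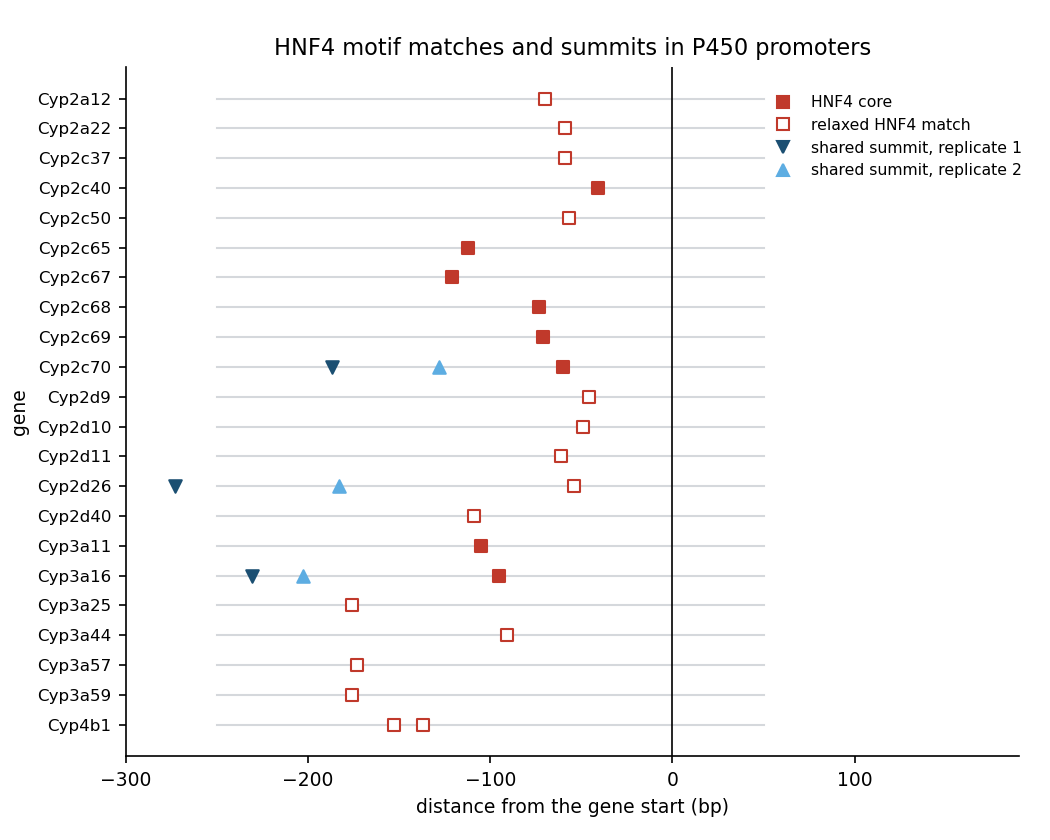
Matches of the relaxed HNF4 motif CAAAGNNCA in the promoter windows of the 22 members that hold it, by distance in bp from the gene start (0), with filled squares for the core CAAAGTCCA and open squares for other words; triangles mark summits of shared sites (pointing down for replicate 1, up for replicate 2). All matches begin between 45 and 180 bases before the start, and triangles stand beside Cyp2c70, Cyp2d26 and Cyp3a16 only.

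Across all protein-coding genes, those with a shared summit in the window did not hold the motif more often. Of the 1016 genes with a shared summit in the window, 5.91% held the relaxed motif, beside 6.65% of all genes, and 0.492% held the core, beside 0.520%. Other motifs were searched on both strands. The nuclear receptor word AGGTCA was present in windows of 19 members (30.6%, beside 16.7% of all genes) and the FOXA word GTAAACA in those of 6 (9.68%, beside 3.45%). The dioxin response core GCGTG, the aryl hydrocarbon receptor's word, was present in those of 13 members (20.97%, beside 41.4%), among them Cyp1a1 and Cyp1b1. No member window held the direct repeat of AGGTCA with 1 base between the copies, which 0.0572% of all genes had. AGGTCA lies within that repeat, and a match of letters is a description, not a site.

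Some P450 promoters were closely alike in sequence and others were not. The windows of Cyp2c40 and Cyp2c69 share an exact run of 143 bases, those of Cyp2b9 and Cyp2b13 one of 196 bases and those of Cyp2a4 and Cyp2a5 one of 111 bases. Among the 6 core-bearing members without a shared summit in the window, the longest exact run shared with another gene's window was 36 to 143 bases. Of the 2 with one, Cyp2c70 shared no run of 20 bases or more, and Cyp3a16 shared 67 bases with Cyp3a41b. Of all 62 members, 20 shared a run of at least 50 bases, and the median of the longest run was 21.5 bases. The 7 Cyp2j windows, Cyp2d26 and Cyp2d40 shared no run of 20 bases or more with another gene's window, as did many others, among them Cyp1a1, Cyp1a2, Cyp1b1, Cyp2e1 and Cyp2s1. With such windows set to 0, the median longest run was 0 in the 10 members with a shared summit inside or within 10 kb. It was 23.5 bases in the 52 with none. The part of read placement in where summits were called was not tested.

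Counted over whole genes and wider windows, promoter sites included, few members had Hnf4a sites close by. A shared summit lay inside 5 of 74 members (6.76%, beside 13.7% of all protein-coding genes), within 10 kb of a gene end at 11 (14.9%, beside 20.6%), and within 50 kb at 22 (29.7%, beside 46.8%). Taken alone, replicate 1 placed a summit inside 8 members (26.3% of all genes had one), within 10 kb of 16 (39.4%) and within 50 kb of 30 (69.3%). Replicate 2 did so for 10 (28.4%), 17 (41.9%) and 39 (72.4%). Each of these 9 member shares was below that of all genes, whose median length is 17170 bp beside 22155 bp for members. Neighbouring members share sites and sequence, so 74 genes are not 74 separate observations, and no test was run.

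**Figure D2:**
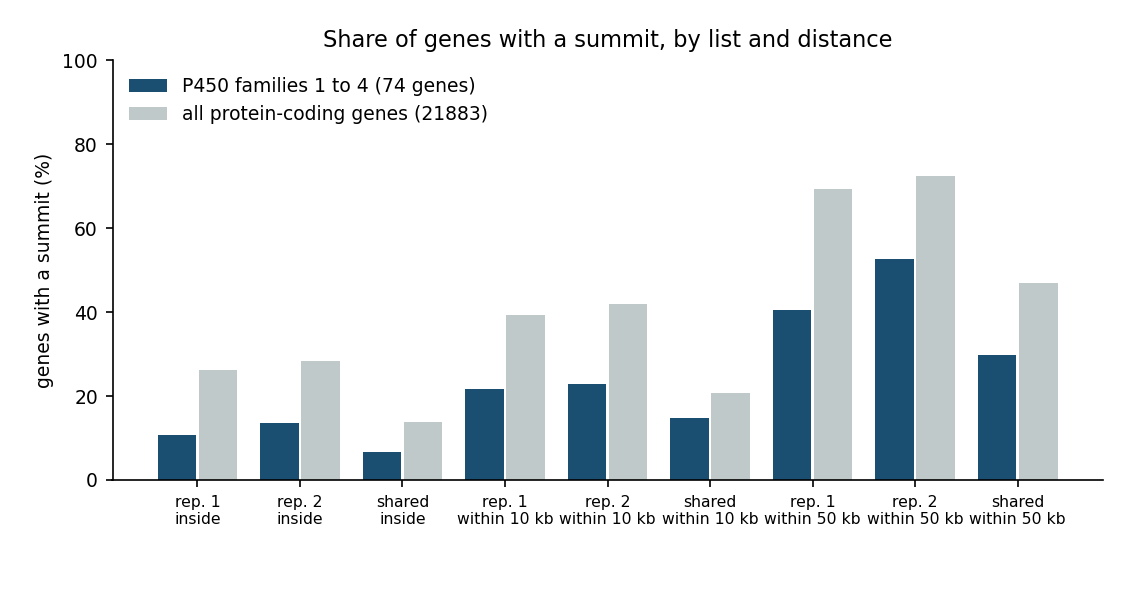
Percentage of genes with a summit inside them, within 10 kb or within 50 kb of a gene end, for replicate 1, replicate 2 and shared summits; dark bars are the 74 P450 genes and grey bars all 21883 protein-coding genes. The dark bar is lower than the grey bar in all 9 pairs, as with 29.7% beside 46.8% for shared summits within 50 kb.

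The 11 members with a shared summit inside or within 10 kb fell in 9 subfamilies and 9 of the 27 loci. They were Cyp1a1, Cyp1a2, Cyp2b10, Cyp2b13, Cyp2c70, Cyp2d26, Cyp2f2, Cyp2s1, Cyp2u1, Cyp2w1 and Cyp3a16. They divide 13 sites among them, of which 6 lie inside a member. Family 4 had 0 of 17 members with a shared summit within 10 kb (20.6% of all genes) and 0 with one inside (13.7%). Its genes include clusters of 6 and 5 neighbours, so the 17 are not separate observations.

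Family 1 had 1 shared site within 10 kb, that of its Cyp1a pair. Both oxidise polycyclic aromatic hydrocarbons and are the standard targets of the aryl hydrocarbon receptor. Summits at 57688637 in replicate 1 and 57688628 in replicate 2 on chromosome 9, scored 25.4 and 20.6, lay 4977 bp before the start of Cyp1a2 and 8981 bp before the start given for Cyp1a1 by its promoter window. Cyp1a2 runs on the minus strand and Cyp1a1 on the plus strand, so the site lies between their starts. It counts as inside Cyp1a1 because the gene table begins that gene at 57687928. Cyp1b1, an enzyme of oestrogen and hydrocarbon oxidation outside the liver, had no shared summit within 50 kb. Its best-scored summit, 20.7 in replicate 2, lay 31360 bp away and 156 bp from a replicate 1 summit, so that it missed the 100 bp allowed.

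The Cyp2b genes carried the best-scored P450 site. Inside Cyp2b13, a form more abundant in female mouse liver, summits at 26082700 and 26082725 on chromosome 7 scored 42.2 in replicate 1 and 46.0 in replicate 2, within the top 0.540% and 0.386% of the lists. The site is 21217 bp into the gene and 13485 bp from its nearer end. A further site in the gene, 42 bp from its far end, scored 13.1 in replicate 1 and 21.5 in replicate 2. Cyp2b9, its close neighbour, had summits of both replicates inside it that were 285 bp apart, with scores of 6.198 in replicate 1 and 5.15 in replicate 2, and these did not count as shared. Cyp2b10, the main target of the constitutive androstane receptor, had a site 4652 bp into the gene with scores of 13.3 and 8.68. The remaining Cyp2b members, Cyp2b19 and Cyp2b23, had no summit of either replicate within 50 kb.

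Of the single-gene subfamilies of family 2, Cyp2s, Cyp2w, Cyp2f and Cyp2u had a shared site within 10 kb. Cyp2s1, known mainly from epithelia outside the liver, had 2 sites beyond its transcript end, 16999 and 17969 bp from the start. They scored 13.6 and 14.0005 in replicate 1, against 11.2 and 9.58 in replicate 2. The Cyp2w1 site, with scores of 21.01 and 14.2, lay 7287 bp before the start of that gene, which is known from fetal gut and colon tumours, but its nearest gene was Cox19, a mitochondrial assembly factor. Cyp2f2, which activates naphthalene in the club cells of mouse airways, had a site 3717 bp before its start with scores of 8.81 and 5.97. Cyp2u1, a fatty acid hydroxylase, had one inside the gene 849 bp from an end with scores of 8.69 and 4.96. The replicate 1 score exceeded the replicate 2 score at all 5 of these sites.

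Several well-known enzymes of family 2 had no summit nearby. The Cyp2a, Cyp2e, Cyp2g, Cyp2j and Cyp2r subfamilies, with 14 members, had no summit of either replicate within 50 kb. Of all genes, 69.3% had a replicate 1 summit and 72.4% a replicate 2 summit at that distance, and the share with neither was not counted. Neighbours make up much of this group, with the Cyp2j genes in clusters of 5 and 2, so the 14 are not separate observations. The 14 include Cyp2a5, a coumarin and nicotine oxidase, Cyp2e1, the ethanol-inducible enzyme, Cyp2r1, a vitamin D hydroxylase, and all 7 Cyp2j epoxygenases. The nearest shared summits were 272974 bp from Cyp2a5, 147760 bp from Cyp2e1 and 273610 bp from Cyp2r1. In the Cyp2c cluster of 7 genes from Cyp2c29 to Cyp2c69, which holds 4 of the core-bearing promoters, replicate 1 had no summit, and replicate 2 had 1, with a score of 2.25 inside Cyp2c38, where the table's span of Cyp2c39 overlaps it. The nearest shared summit to Cyp2c29, an abundant enzyme of adult mouse liver, was 313032 bp away. Cyp2d22 had no shared summit within 10 kb, and its nearest was 18719 bp away within Ndufa6.

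In family 3, Cyp3a16 alone had a shared summit within 50 kb, of 7 members, which leave out Cyp3a41a and Cyp3a41b. Of all genes, 46.8% had one at that distance. The cluster from Cyp3a44 to Cyp3a59 holds 4 of the 7, so they are not separate observations. Cyp3a25 had a summit in replicate 1 alone, 463 bp into the gene with a score of 3.43. Cyp3a13, known from the intestine, had a single replicate 2 summit 17902 bp away with a score of 6.07. Cyp3a57 had a replicate 1 summit 31017 bp away, scored 8.81, which lay 162 bp from a replicate 2 summit. Cyp3a59 had no summit of either replicate within 50 kb.

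In family 4, shared sites began beyond 10 kb. Cyp4b1, an enzyme of lung and kidney, had the best-scored of them, 11812 bp before its start, with scores of 19.4 in replicate 1 and 14.8 in replicate 2, and Cyp4b1 is its nearest gene. Cyp4f14, which inactivates leukotriene B4 by hydroxylation, had 1 at 11706 bp with scores of 4.93 and 7.63, but 10 bp from Zfp870. A replicate 1 summit lay 786 bp outside Cyp4f14, with a score of 3.10. Cyp4a10, a target of PPAR alpha, held a replicate 2 summit of 8.65 inside the gene and no replicate 1 summit within 50 kb. Cyp4a14 had no shared summit nearer than 163375 bp. Cyp4v3, a fatty acid hydroxylase, had a replicate 2 summit 79 bp before its start, scored 5.32, and a replicate 1 summit of 11.03 that lay 43690 bp from the gene and 56 bp from F11.

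**Figure D3:**
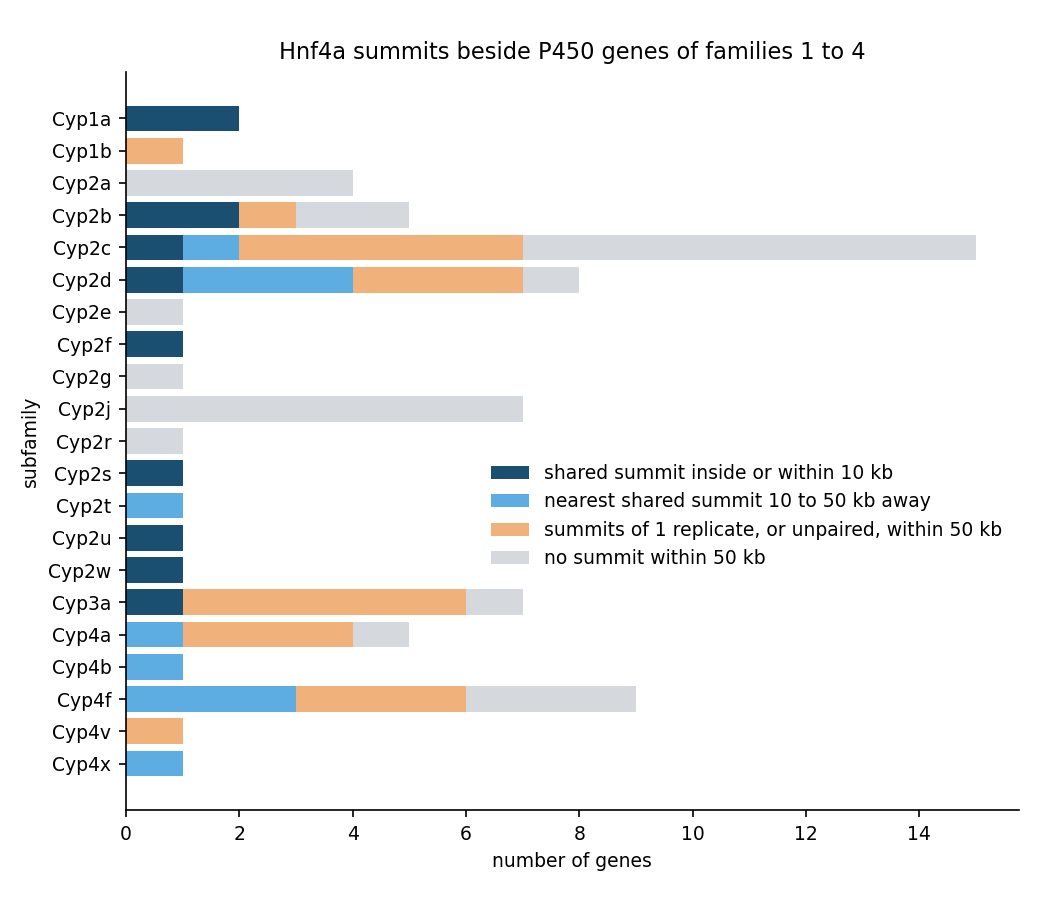
Number of genes (x axis) in each of the 21 subfamilies (y axis), by the closest class of summit: shared inside or within 10 kb (11 genes in all), nearest shared summit 10 to 50 kb away (11), unshared summits within 50 kb or inside (22) and no summit (30). Cyp2j and Cyp2a are wholly in the last class, and Cyp1a wholly in the first.

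The larger subfamilies are set side by side by members with a shared summit within 10 kb, which 20.6% of all genes had. Cyp2c had 1 of 15 members with a shared summit within 10 kb, Cyp4f 0 of 9, Cyp2d 1 of 8, Cyp2j 0 of 7, Cyp3a 1 of 7 and Cyp4a 0 of 5. Cyp2b had 2 of 5 and Cyp1a 2 of 2 through 1 site. Among the 11 members that lie alone, 2 had one, Cyp2u1 and Cyp2w1. Over all members, 5 had summits inside or within 10 kb in replicate 1 only and 8 in replicate 2 only, and 49 had none in either. Counts this small say little about a subfamily, and the share of all genes with none in either replicate was not counted.

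Shared sites within 50 kb of members were fewer per Mb between the ends of the loci than beside them. Of 29 shared sites, 8 were within the 3.75 Mb of locus spans, from the first to the last base of their members, and 21 in the 2.70 Mb of flanks, 50 kb on each side. The flank sites include the promoter sites of Cyp2d26, Cyp2c70 and Cyp3a16, which lie 21, 157 and 200 bp outside the spans. Part of the contrast between span and flank thus rests on where the spans end. That is 2.14 sites per Mb of span and 7.78 per Mb of flank, beside 3.71 per Mb over chromosomes 1 to 19. The 16 clusters of several members had 1.97 per Mb of span and 10.0 per Mb of flank. The 11 single genes did not share this order, with 5.03 per Mb of span (1 site) and 4.55 per Mb of flank (5 sites). The exact Poisson interval of the span density, which covers counting error only, is 0.922 to 4.21 per Mb, so it takes in the chromosome value. Over all loci the single lists were ordered alike, with 4.27 per Mb of span, 12.2 per Mb of flank and 8.56 per Mb of chromosome in replicate 1, and 5.34, 13.3 and 9.66 in replicate 2. Spans held 76 protein-coding genes (74 members and 2 others) and flanks 34 others, and 15 of the 21 flank sites were nearest to a gene that is no member. The best-scored of them, 26.4 in replicate 1 and 28.1 in replicate 2, lay inside Axl, a receptor tyrosine kinase gene, 20017 bp from Cyp2s1. Others lay at Rab4b, beside Cyp2t4 (17.7 and 18.6), inside Edc3, beside Cyp1a1 (17.7 and 12.7), and inside Csk, beside Cyp1a2 (10.9 and 8.04).

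**Figure D4:**
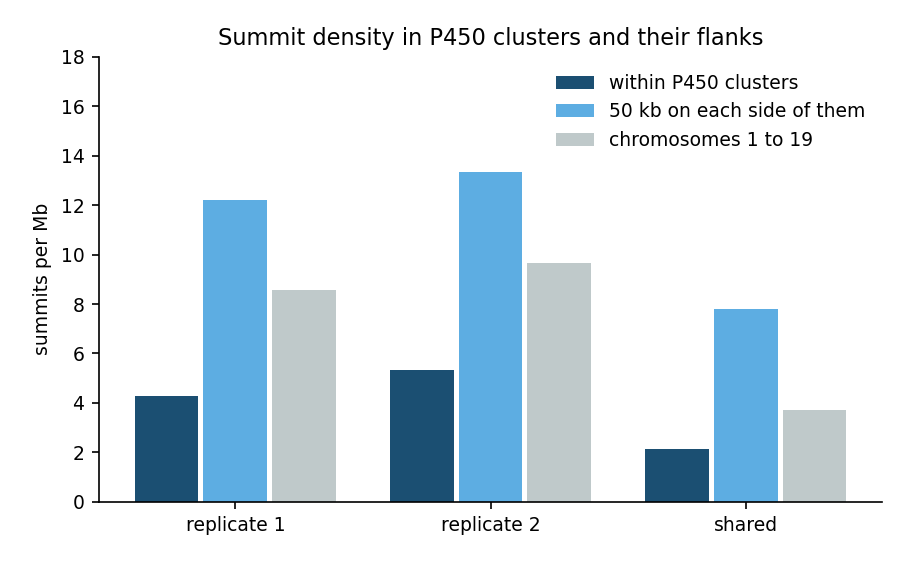
Summits per Mb within P450 loci (clusters and single genes), in the 50 kb on each side of them and over chromosomes 1 to 19, for replicate 1, replicate 2 and shared summits. In each of the 3 groups of bars the loci have the lowest density and their flanks the highest, with 2.14, 7.78 and 3.71 per Mb for shared summits. The shared promoter sites of Cyp2d26, Cyp2c70 and Cyp3a16 lie just outside the gene spans and count with the flanks.

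At the 29 sites the median score was 13.1 in replicate 1 and 9.58 in replicate 2, beside 9.93 and 9.61 over all shared summits. The replicate 1 score was the higher at 17 sites and the replicate 2 score at 12. Ranked across sites, the scores of both libraries gave a Spearman's rho of 0.754 for the 29 sites, beside 0.587 for all 9193. These are correlations across sites of the same 2 libraries and carry no p. The summits of a pair were 4 to 90 bp apart, with a median of 37 bp, beside 32 bp over all pairs.

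**Figure D5:**
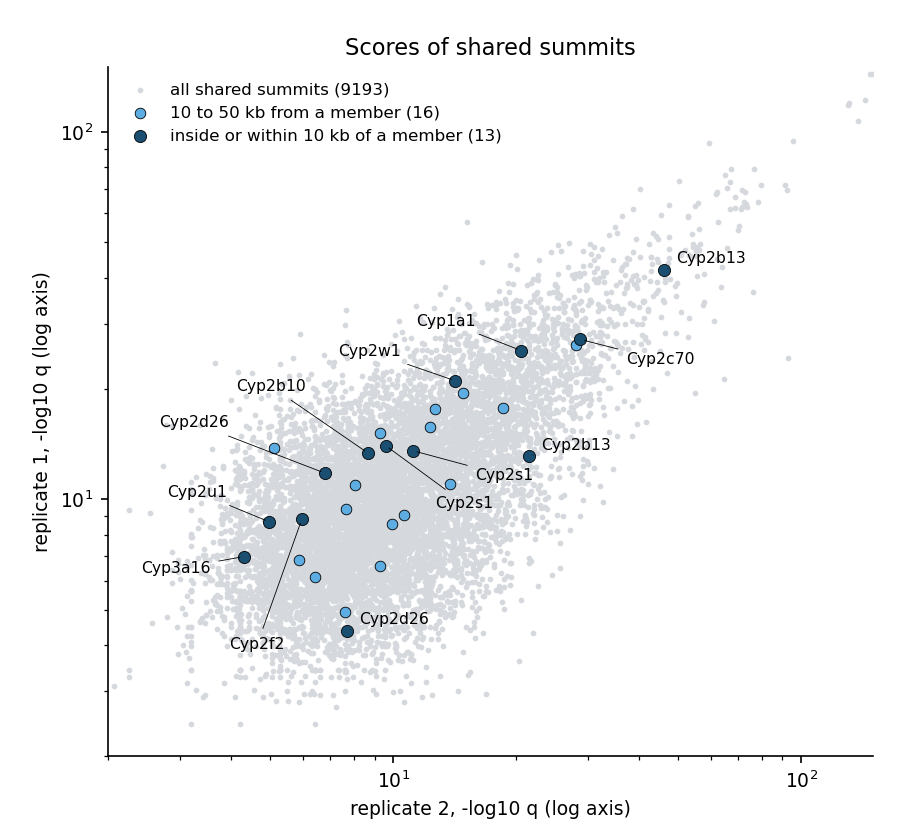
Scores (−log10 q) in replicate 1 (y axis) and replicate 2 (x axis), on log axes, for shared sites inside or within 10 kb of a P450 gene (dark, named by nearest member), 10 to 50 kb away (blue) and all shared summits (grey, the highest not drawn). The sites of Cyp2b13 (42.2 and 46.0) and Cyp2c70 (27.2 and 28.8) stand highest among the named sites, and Cyp3a16 (6.98 and 4.31) and the site 667 bp into Cyp2d26 (4.39 and 7.69) lowest in replicate 1.

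Summits near members with no partner within 100 bp had lower median scores. They numbered 20 in replicate 1, with a median score of 6.52 and a highest of 16.4, and 27 in replicate 2, with a median of 5.29 and a highest of 20.7. Shared sites made up 59.2% of the replicate 1 summits within 50 kb of a member, beside 43.2% of the whole list, and 51.8% of those of replicate 2, beside 38.1%. These shares rest on 49 and 56 summits, and 5 and 6 of the unpaired ones had a summit of the other replicate within 500 bp.

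In the remaining loci the best-scored unpaired summit was mostly distant or low. Cyp2d22 had one in replicate 1, 24209 bp away inside Smdt1, with a score of 14.97. Cyp2t4 had one in replicate 2, 37726 bp away inside BC024978, with a score of 11.6. It missed a replicate 1 summit by lying 196 bp from it. Cyp2s1 had one in replicate 1, 10518 bp away, with a score of 8.99. Scores ran between 5 and 7 at Cyp2c23 (6.76, replicate 1, 35651 bp away), Cyp1a1 (6.51, replicate 2, 41374 bp away), Cyp2w1 (6.29, replicate 1, 20816 bp away) and Cyp4f18 (5.50, replicate 1, 28812 bp away). Those of Cyp2c23, Cyp1a1 and Cyp2w1 lay inside Erlin1, Edc3 and 3110082I17Rik. Cyp2c55 had a replicate 1 summit of 5.64 inside the gene. The lowest were 4.21 in replicate 2 both at Cyp4f15, 45755 bp away, and inside Cyp2c70, then 3.54 at Cyp4f13, 18242 bp away, and 3.19 inside Cyp2u1.

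The members with a shared summit 10 to 50 kb away were Cyp2c55, Cyp2d11, Cyp2d22, Cyp2d40, Cyp2t4, Cyp4a32, Cyp4b1, Cyp4f13, Cyp4f14, Cyp4f18 and Cyp4x1. Those with unpaired summits only were Cyp1b1, Cyp2b9, Cyp2c23, Cyp2c38, Cyp2c39, Cyp2c50, Cyp2c65, Cyp2d9, Cyp2d10, Cyp2d34, Cyp3a11, Cyp3a13, Cyp3a25, Cyp3a44, Cyp3a57, Cyp4a10, Cyp4a14, Cyp4a31, Cyp4f15, Cyp4f37, Cyp4f40 and Cyp4v3. Besides the 14 members of the subfamilies without any summit, those with none were Cyp2b19, Cyp2b23, Cyp2c29, Cyp2c37, Cyp2c40, Cyp2c54, Cyp2c66, Cyp2c67, Cyp2c68, Cyp2c69, Cyp2d12, Cyp3a59, Cyp4a29, Cyp4f16, Cyp4f17 and Cyp4f39. Members without a promoter window were Cyp2c23, Cyp2c54, Cyp2d12, Cyp2d22, Cyp2d34, Cyp2g1, Cyp2u1, Cyp4a10, Cyp4a14, Cyp4a31, Cyp4f17 and Cyp4x1.

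Genes that act with the P450 enzymes were covered as follows. Of 10 receptors and partners that sense foreign compounds and lipids, 3 had a shared summit within 10 kb (20.6% of all genes did): Nr1i2, the pregnane X receptor, Nr1i3, the constitutive androstane receptor, and Nr1h4, the bile acid receptor. Nr3c1, the glucocorticoid receptor, had one inside the gene, farther from its ends. Ahr, the aryl hydrocarbon receptor, had none within 50 kb, and its nearest was 84495 bp away. Ppara, which acts on Cyp4a genes, had 2 replicate 1 and 5 replicate 2 summits inside it but no shared one. Of 7 genes for electron donors and haem turnover, 2 had one, Hmox1, which breaks down haem (10.6 in replicate 1 and 19.04 in replicate 2, 9712 bp away), and Cyb5a, the cytochrome b5 gene, with 6 shared summits within 10 kb of an end. Por, the reductase that feeds electrons to all these enzymes, had 4 summits of replicate 1 and 2 of replicate 2 inside it and none shared. Of 18 P450 genes of families 5 and above, 2 had a shared summit within 10 kb (11.1%), Cyp8b1 of bile acid synthesis and Cyp27b1, which activates vitamin D (20.6 in replicate 1 and 5.33 in replicate 2, 6173 bp away). Another 2 of the 18, Cyp27a1 and Cyp7b1, had one inside the gene, farther from its ends (11.1%, beside 13.7% of all genes).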

How the data were processed

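ChIL-seq for Hnf4a was analysed in 2 samples of 1 group of iHepCs. Wells of 10000 cells were fixed in 1% formaldehyde for 5 min and transcription in situ ran for 20 h, per the labels' protocols. MACS2 2.2.9.1, HISAT2 2.0.5, fastp 0.23.4 and mm10 are listed in the submitters' processing notes. The deposited lists hold summits of 1 bp called per library with the authors' −log10 q-value, at a q threshold of 0.01 per the peak names in the files. The use of a control library or of duplicate removal was not given in the sources, and read depth is unknown.

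Summits of both lists within 100 bp were paired one to one, nearest pairs first, and placed at their midpoint. Genes came from RefSeq GRCm38.p6. Within 10 or 50 kb means on either side of either gene end, and members up to 100 kb apart formed a cluster. Gene starts and strands came from RefSeq promoter windows of 300 bases, matched for 62 of 74 members by gene ID. Motifs were searched on both strands, and window identity was taken from global alignments. Protein sequences were not used here, so the protein identities listed in the design were not computed. Chromosome spans run from the first to the last gene or summit.

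The members, lists and settings were chosen with earlier results of these data known. Named by rule were all members with a shared summit inside or within 10 kb, textbook members, the member nearest the best-scored unpaired summit of each cluster, and listed pathway genes with a shared summit within 10 kb. Promoters were printed for members with a shared summit within 1 kb of the start. Others were chosen after their values were seen. The alternatives were other distances for sharing, score limits, each replicate alone, other windows, cluster gaps and backgrounds. Scripts were tested on simulated data, and no test between conditions was possible. Tools were Biopython 1.88, scipy 1.17.1, pandas 2.3.3, numpy 2.4.6 and matplotlib 3.10.9 under Python 3.11.15.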

Additional observations from a re-analysis of the deposited data

How the results depend on the processing

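No paired analysis was possible because there is 1 group only. With both replicates required within 50, 200 or 500 bp, the counts of members, clusters and subfamilies stayed within 1.5 times those at 100 bp. Limiting summits to a score of 5 or more left 3 members with a shared summit inside the gene, in place of 5. With the 10000 best-scored summits of each list, 3 members had a shared summit inside, 7 had one within 10 kb (in place of 11), and 5 clusters and 5 subfamilies had one (in place of 9 each). The density in cluster spans was then 1.07 per Mb (4 sites), in place of 2.14 (8 sites), beside 2.01 over chromosomes 1 to 19. Leaving out 1 replicate and counting all summits of the other gave 8 to 10 members inside, 16 to 17 within 10 kb, 30 to 39 within 50 kb and 4.27 to 5.34 summits per Mb of cluster span. The share of members was below that of all genes under all 8 settings inside the gene, all 11 within 10 kb and all 8 within 50 kb. These settings include the main one and re-use the same 2 lists and the same genes, so they are not separate observations. The closest was a window of 5 kb, with 13.5% of members beside 14.9% of all genes. Spearman's rho was 0.857 over the 13 sites within 10 kb, in place of 0.754 over 29. Cyp3a16 (4.31) and Cyp2u1 (4.96) have a replicate 2 score under 5 and were not among the members within 10 kb at that limit. At 500 bp the summits of Cyp2b9 counted as shared. Without read counts the precision of low scores is unknown.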
